A study of Arabidopsis thaliana with 15 samples.

Results

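Uninduced Arabidopsis thaliana seedlings were followed over 2 days, from 5 to 7 days of age. The members are the 6 arrays, of 15 in the series, whose titles read control_4h (3 arrays) and control_48h (3 arrays), and all 22746 probe sets of the ATH1 array apart from Affymetrix control sequences, so no value entered the choice. Both groups were whole seedlings of the Columbia ecotype without estrogen. Seeds were kept at 4 °C for 3 days and seedlings were raised on upright plates of MS medium with sucrose at 22 °C, with light for 24 h a day. At 5 days they were moved by forceps to fresh plates of that medium and collected 4 h later (labelled 5 days old) or 48 h later (labelled 7 days old). The other 9 arrays came from seedlings moved to 10 µM estrogen, which switched on a FAMA cassette (4 h and 48 h) or a FAMA-EAR construct (48 h). FAMA is the transcription factor that closes the stomatal lineage by ending divisions and starting guard cell differentiation, and the EAR motif is a repression domain. The labels of the uninduced seedlings name no transgene, so whether they carried a cassette is not given in the sources used here. Age, time since the transfer and the moment of harvest moved together by 44 h and cannot be told apart.

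A seedling of this age leaves the stage in which it lives on stored oil and comes to feed itself by photosynthesis, while its first true leaves grow from the shoot tip. Oil is turned into sugar through fatty acid breakdown and the glyoxylate cycle. The photosynthetic complexes of the thylakoid membrane are built from proteins encoded partly in the nucleus and partly in the plastid genome. Late embryogenesis abundant (LEA) proteins, dehydrins and the cold-regulated COR proteins are small hydrophilic proteins that accumulate in drying seeds and in plants short of water or exposed to cold.

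Values are the intensities (signals) deposited by the authors, which carry the same scaled mean on every array. Array medians ran from 191.7 to 197.1 over the 6 uninduced arrays, and the mean rank correlation of an array with the others of its group ran from 0.976 to 0.982. RNA integrity was read from the actin and GAPDH control probes, whose mean log2 ratio of 3′ to 5′ signal was 0.345, 0.399 and 0.369 at 4 h and 0.301, 0.495 and 0.297 at 48 h, so the groups overlapped. The third FAMA 4 h array stood apart, with a median of 239.5, and entered the fit through the shared estimate of the spread. The Rubisco activase gene RCA, a leaf marker, had mean signals of 19442 at 4 h and 24285 at 48 h, whereas the root hair expansins EXPA7 and EXPA18 lay below the median of all signals, 197.4. Of the probe sets, 13513 carried the name of 1 gene, 503 of several and 8730 of none, and 1628 of the first had a symbol other than the locus name. The first digit of a locus name such as AT2G42540 is its chromosome.

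Between 4 h and 48 h, 1633 of 22746 probe sets (7.18%) passed an adjusted p of 0.05 in limma, 767 of them higher (3.37%) and 866 lower (3.81%) at 48 h. Most steps were small. The median log2 change on the log2(signal + 20) scale was 0.51 among the probe sets that rose and -0.64 among those that fell, against 0.03 over all probe sets. A fold of at least 2 was reached by 253 (1.11%), made up of 63 rises (0.277%) and 190 falls (0.835%), and a fold over 4 by 2 rises and 17 falls. The 48 h arrays lay wholly above the 4 h arrays for 3346 probe sets (14.7%) and wholly below them for 2568 (11.3%), and 4080 had an unadjusted p under 0.05. Of the 13513 probe sets with 1 named gene, 780 (5.77%) passed. For a single gene, an exact permutation test of 3 arrays against 3 cannot go below p = 0.1. The labels do not say that arrays came from separate cultures, so p-values measure the spread between these samples only. The number of rises depended on single arrays, going from 767 to 460 without the second 48 h array, to 497 without the second and 510 without the third 4 h array, and to 1151 without the third FAMA 4 h array.

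The strongest fall was that of COR15A (AT2G42540), which encodes a cold-induced protein of the chloroplast stroma that protects membranes. Its signal was 1689.9, 2027 and 2215 at 4 h and 101, 116 and 44.5 at 48 h. All 3 older samples lay far below all 3 younger ones, and the log2 change was -4.28 (SE 0.309, limma adjusted p = 3.06e-08). LTI30, a dehydrin of the same cold and drought response, gave 7235, 6104 and 7089.8 at 4 h and 2119.6, 1539 and 1912 at 48 h, a log2 change of -1.87 (adjusted p = 2.09e-10). The dehydrin COR47 gave 7290.1, 6931 and 7768 and then 3799, 3350.3 and 3609.6, a log2 change of -1.03 (adjusted p = 1.12e-07). In none of these genes did the groups overlap, where 11.3% of all probe sets lay wholly lower at 48 h. For COR15A and LTI30 the rule for naming the largest falls required this. COR15B, the neighbour of COR15A on its chromosome, gave 184, 218 and 212 and then 131, 126 and 122. Its groups did not overlap either, but its log2 change of -0.61 did not pass the test (adjusted p = 0.28).

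These 4 genes were all that could be measured of 16 listed for cold and dehydration, where 3 fell and none rose (3.81% of all probe sets fell), with a median log2 change of -1.45. Families of genes taken by name, here and below, were chosen after their values were seen, so their counts are a description. Among the 12 genes whose names mark them as LEA, dehydrin or cold-regulated, 5 fell and none rose, with a median of -0.69. Besides those above, these were LEA18 and LEA4-5, which encode LEA proteins of the same group. LEA18 went from 114 ± 32.4 (SD, n = 3) to 20.4 ± 13.5 (SD, n = 3), a log2 change of -1.76 (adjusted p = 0.00178). LEA4-5 changed by -1.24 (adjusted p = 0.0282) from 122, 116 and 181 to 53.0, 59.0 and 30.7. LEA4-5 lost its call when any of the 6 uninduced arrays but the second 48 h array was left out, with adjusted p-values from 0.0537 to 0.148. It also lost it with an offset of 1 (0.0675) and without the variance trend (0.0737). Not every member of the group moved. The log2 changes of AT2G46140, AT2G44060 and AT1G54410 lay between 0.00 and 0.08, and that of COR27, at 0.67, did not pass the test (adjusted p = 0.173). Another family by name, the seed storage and LEA proteins, moved less as a group. Of its 14 genes 1 rose, 2 fell and 11 were not called, where 3.37% of all probe sets rose and 3.81% fell. LEA18, counted above, was its largest fall, so the families are not separate. The rise was not called with equal array medians or with quantile normalization. Its median log2 change was -0.16, and 5 of the 14 changes were positive. OSM34, an osmotin of the defence and salt response, fell by 0.88 on the log2 scale, from 1367 ± 95.7 (SD, n = 3) to 736 ± 71.3 (SD, n = 3) (adjusted p = 3.76e-04).

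**Figure D1:**
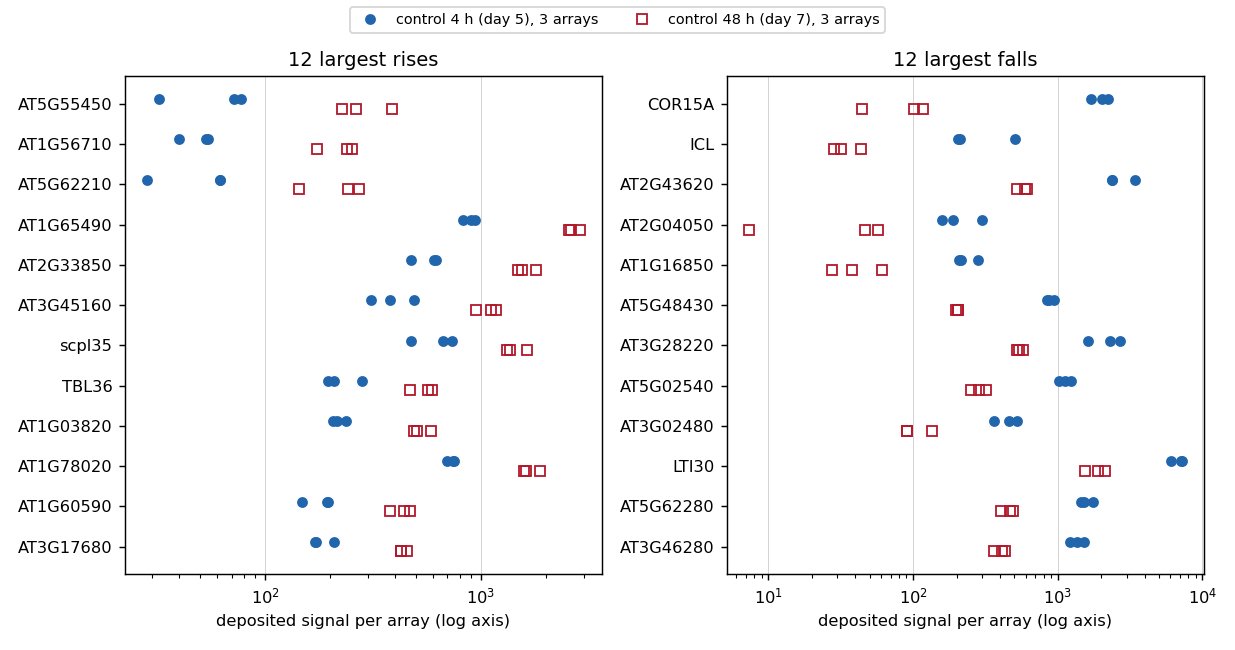
Signals on each of the 6 uninduced arrays (log axis) for the 12 largest rises (left) and the 12 largest falls (right) that met the rule for naming, ordered by size from the top; filled circles are the 4 h arrays and open squares the 48 h arrays. Groups did not overlap in any row, which that rule required, and COR15A showed the widest gap, with 48 h signals of 101, 116 and 44.5.

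The gene for isocitrate lyase, ICL, a key enzyme of the glyoxylate cycle, had the second largest fall among the named genes. Its signal was 210.4, 510.5 and 204 at 4 h and 28.2, 31.7 and 44.0 at 48 h, a log2 change of -2.47 (SE 0.415, adjusted p = 5.30e-04). The 4 h arrays were uneven, with the second well above the others. That the groups did not overlap was required by the rule for naming the largest falls. The other measured genes of oil use did not pass the test. AIM1, a multifunctional enzyme of peroxisomal beta-oxidation, gave 1912, 2164 and 1802 and then 1832, 2433 and 1789.9 (log2 change 0.03, adjusted p = 0.95). SDP1, the lipase that starts the breakdown of seed oil, gave 729, 534 and 639 and then 495, 579 and 516 (log2 change -0.24, adjusted p = 0.273). Only 3 of the 19 listed genes of fatty acid breakdown and the glyoxylate cycle could be measured.

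The other large falls that met the rule for naming were those of genes that the annotation names by locus only. AT2G43620 gave 2371, 3412 and 2384 at 4 h and 616, 594 and 522 at 48 h, a log2 change of -2.18 (adjusted p = 9.52e-07). AT5G48430 fell by 2.02 on the log2 scale, from 885 ± 48.6 (SD, n = 3) to 203 ± 3.47 (SD, n = 3) (adjusted p = 1.33e-08). The arrays of AT5G48430 agreed closely within each group. The log2 changes of AT2G04050, AT1G16850, AT3G28220, AT5G02540, AT3G02480, AT5G62280 and AT3G46280 lay between -2.14 and -1.72. Of the 12 largest falls under the rule, 3 had a symbol (COR15A, ICL and LTI30).

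The rule for naming took probe sets with 1 named gene, no overlap between the groups and a mean in the higher group of at least the median signal. Of the 12 largest rises that met it, 2 had a symbol, scpl35 and TBL36. Larger rises outside the rule went to 2 probe sets, up to 2.28. The first under the rule, AT5G55450, gave 32.1, 77.7 and 71.7 at 4 h and 386, 228 and 264 at 48 h, a log2 change of 1.98 (SE 0.259, adjusted p = 3.35e-05). Its groups did not overlap, which the rule required. AT1G65490 rose from 888 ± 61.2 (SD, n = 3) to 2686 ± 177 (SD, n = 3), by 1.58 (adjusted p = 3.56e-06). The serine carboxypeptidase-like gene scpl35 gave 475, 732 and 670.0 and then 1367, 1643 and 1329, a log2 change of 1.20 (adjusted p = 3.12e-05). TBL36, a member of the trichome birefringence-like family of wall-related proteins, changed by 1.19, from 229 ± 46.0 (SD, n = 3) to 546 ± 65.8 (SD, n = 3) (adjusted p = 6.78e-05). Among the rises, AT5G62210 lost its call without the third 4 h array or without the second 48 h array, with adjusted p-values of 0.0665 and 0.0636, and without the variance trend (0.0711). The log2 changes of AT1G56710, AT2G33850, AT3G45160, AT1G03820, AT1G78020, AT1G60590 and AT3G17680 lay between 1.17 and 1.80.

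Of 30 measured nuclear genes named for the photosynthetic apparatus, 10 rose, none fell and 20 were not called, where 3.37% of all probe sets rose. This group was chosen by name after its values were seen, so the share is a description. The log2 change was positive in 27 of the 30, with a median of 0.31. The rises included enzymes of chlorophyll synthesis, an antenna protein, assembly factors and subunits of the chloroplast NADH dehydrogenase-like (NDH) complex. In bulk tissue a change in the share of leaf cells and a change in RNA per cell cannot be told apart, here and in the groups that follow. The number of rises was 4 when array medians were set equal and 4 without the variance trend, where CHLM, LHCB4.3, LPA2 and NdhN kept their calls, and it was 6 without the first or the second 4 h array or the second 48 h array.

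CHLM, the methyltransferase of the magnesium branch of chlorophyll synthesis, gave 7011, 5131 and 7122 at 4 h and 9150.2, 10126 and 9407 at 48 h, a log2 change of 0.59 (SE 0.103, adjusted p = 8.44e-04). PORB, one of the light-dependent protochlorophyllide oxidoreductases, gave 4844, 4098 and 4906 and then 6562, 5245 and 6563, a log2 change of 0.40 (adjusted p = 0.0242). The magnesium chelatase subunit gene CHLI2 rose by 0.31 (adjusted p = 0.0359). All 3 genes were higher on every 48 h array than on any 4 h array. PORB lost its call without the second 4 h or the first or the third 48 h array (adjusted p from 0.114 to 0.145), and CHLI2 without any uninduced array but the first 48 h array (0.0646 to 0.19). LHCB4.3, a minor antenna protein of photosystem II, gave 310.1, 264 and 262 and then 515, 518 and 491, the largest log2 change of the group at 0.82 (adjusted p = 0.00195). Its paralogs LHCB4.1 and LHCB4.2 changed by 0.15 and 0.15 and did not pass the test (adjusted p = 0.527 and 0.569).

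LPA2, which helps assemble photosystem II, rose by 0.65, from 1189 ± 37.4 (SD, n = 3) to 1878 ± 199 (SD, n = 3) (adjusted p = 2.75e-05). The nuclear-encoded NDH subunit genes NdhN and NdhL rose by 0.61 and 0.43 (adjusted p = 0.00371 and 0.0122). PIFI, a protein associated with the NDH complex, rose by 0.48 (adjusted p = 0.0197). HCF101, which supplies iron-sulfur clusters for photosystem I, rose by 0.35 (adjusted p = 0.0174). AT4G01150, also called CURT1A, which curves the thylakoid membrane, rose by 0.43 (adjusted p = 0.00768). Each of NdhL, PIFI, HCF101 and AT4G01150 lost its call without at least 1 uninduced array, the second 48 h array for all of them but NdhL and the first 4 h array for all but AT4G01150. The list of classic photosynthesis genes gave another picture of size. Of its 41 genes 7 were measured, and none passed the test, although all 7 log2 changes were positive, between 0.10 and 0.32. Under quantile normalization the median of these 7 was -0.02 in place of 0.15, so their common direction depended on the scaling.

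Of 69 measured probe sets of the plastid genome, 13 fell, none rose and 56 were not called, where 3.81% of all probe sets fell. The log2 change was negative in 62 of the 69, with a median of -0.34. The falls were those of 4 of 20 photosystem genes, 2 of 6 cytochrome b6f genes, 2 of 6 ATP synthase genes, 1 of 10 NDH genes, 2 of 15 ribosomal protein genes and 1 of 4 RNA polymerase genes, so most genes of each kind were not called. The median log2 change was lowest for the ATP synthase genes, at -0.62, and highest for the ribosomal protein genes, at -0.20.

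The gene atpI, for a membrane subunit of the ATP synthase, gave 566, 504 and 942 at 4 h and 249.8, 319 and 173 at 48 h, a log2 change of -1.36 (SE 0.257, adjusted p = 0.00181). The groups did not overlap, and the third 4 h array was the highest of the 6. For atpF, another membrane subunit, the signals were 4273, 3447 and 4143 and then 2014, 2152 and 2058, a log2 change of -0.92 (adjusted p = 0.0018). For petL, a small subunit of the cytochrome b6f complex, they were 5071, 4799 and 7076 and then 3369.9, 2904 and 2910.5, a log2 change of -0.86 (adjusted p = 9.26e-04). The NDH subunit gene ndhE fell by 0.94 on the log2 scale (adjusted p = 0.0134), a call that was lost without the third 4 h array or without the second 48 h array, with adjusted p-values of 0.0991 and 0.0714. The photosystem I genes psaI and psaC fell by 0.78 and 0.56 (adjusted p = 0.00215 and 0.0176). The psbA gene, for the D1 protein of photosystem II, fell by 0.47 (adjusted p = 0.0388), with overlapping groups. Calls also went to rpl20, psbT, petG, accD, rpoC1 and rps4, with log2 changes between -0.77 and -0.52. Without the third 4 h array ndhE, psaC, psbA and these 6 lost their calls, and atpI, atpF, petL and psaI kept theirs.

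Set side by side, the mean log2(signal + 20) of the 30 nuclear genes was 10.66, 10.69 and 10.72 on the 4 h arrays and 10.95, 11.00 and 10.96 on the 48 h arrays. The mean over the 69 plastid probe sets was 11.43, 11.35 and 11.72 at 4 h and 11.02, 11.25 and 11.13 at 48 h. In both sets the groups did not overlap, with the nuclear genes higher and the plastid genes lower at 48 h. The third 4 h array had the highest plastid level. Without it, 4 plastid probe sets fell and the median was -0.24. The number that fell was 6 and 7 without the first and the third 48 h array, 8 with equal array medians, 4 without the variance trend and 24 with array weights. Probe sets for 15 mitochondrial genes showed no call, where 7.18% of all probe sets were called. Their median was -0.27, and 10 of the 15 log2 changes were negative. Only 2 of the 15 reached the median signal in either group, against 66 of the 69 plastid probe sets. The mitochondrial set was therefore mostly too dim for small changes to be called, and the sets cannot be compared by their calls. Whether the method of labelling RNA bears on plastid transcripts was not tested.

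**Figure D2:**
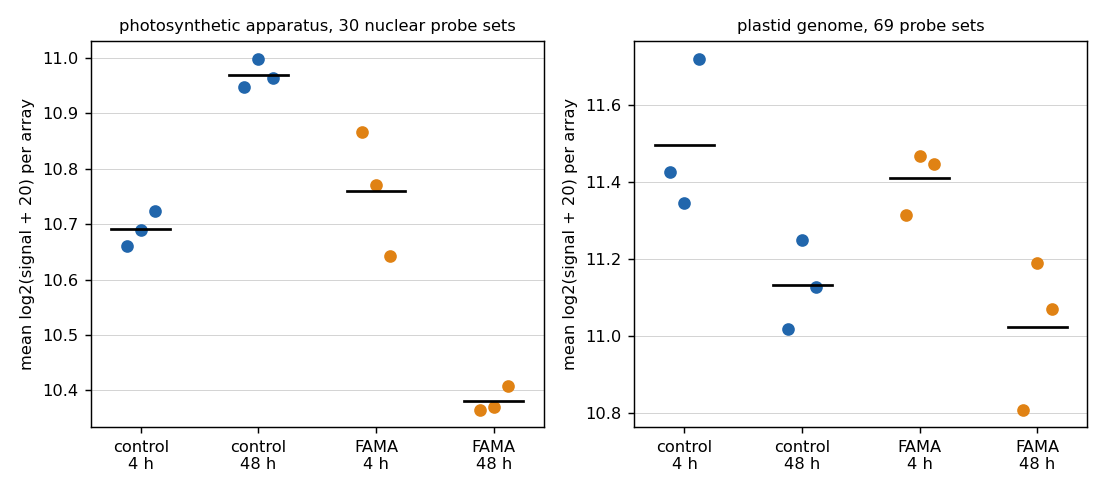
Mean log2(signal + 20) per array (points) and group mean (line) for 30 nuclear genes of the photosynthetic apparatus (left) and 69 plastid probe sets (right), in uninduced and FAMA seedlings at 4 h and 48 h; the axes do not start at 0 and differ in range. Uninduced seedlings went from between 10.66 and 10.72 to between 10.95 and 11.00 in the nuclear genes and from between 11.35 and 11.72 to between 11.02 and 11.25 in the plastid genes.

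Of 12 genes named for cell division, 5 rose, none fell and 7 were not called, where 3.37% of all probe sets rose. This group too was chosen by name after its values were seen. The log2 change was positive in 10 of the 12, with a median of 0.45 and a lowest value of -0.36. 3xHMG-box2 and 3xHMG-box1 encode proteins that bind chromosomes during mitosis. The first gave 611, 603 and 676 and then 1128, 1436 and 1149, a log2 change of 0.95 (SE 0.0977, adjusted p = 2.39e-06), without overlap. The second rose by 0.61 (adjusted p = 0.041), a call lost without any uninduced array but the second 48 h array (0.097 to 0.194). KINESIN-12B, a motor of the phragmoplast that lays down the new cell plate, rose by 0.71, from 115 ± 11.0 (SD, n = 3) to 201 ± 17.8 (SD, n = 3) (adjusted p = 0.0161). Its adjusted p went above the threshold without the first or the second 4 h array or the second or the third 48 h array (0.0547 to 0.0711).

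The Aurora kinases phosphorylate histone H3 and guide the spindle and the division plane. AUR1 gave 395, 396 and 479 and then 649, 540.5 and 686, a log2 change of 0.54 (adjusted p = 0.00761). AUR2 gave 252, 309.6 and 286 and then 422, 436 and 442, a log2 change of 0.59 (adjusted p = 0.02). AUR2 lost its call with equal array medians (0.0603), with quantile normalization (0.0645), without the variance trend (0.066) and without any uninduced array but the second 4 h array (0.0511 to 0.0952), and AUR1 without the third 48 h array (0.0503). AUR3 changed by 0.59, from lower signals of 88.0, 116 and 98.9 to 154, 166 and 162, and did not pass the test (adjusted p = 0.104). In all 3 kinases every 48 h array was above every 4 h array. These 3 were all that could be measured of 20 genes listed for the G2 and M phases. The count of 5 rises rested on single arrays, since it was 1 without the third 48 h array, 2 without the first 4 h array, and 3 without the first or the second 48 h array or the third 4 h array. It was also 3 with equal array medians, with quantile normalization and without the variance trend. Without the second 4 h array KINESIN-12B and 3xHMG-box1 lost their calls too.

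A pair of type-A response regulators, which cytokinin induces, were measured, and 1 rose, where 3.37% of all probe sets rose. RR16 gave 85.2, 48.6 and 66.4 and then 134, 148 and 144, a log2 change of 0.92 (adjusted p = 0.0121), a call lost without the second 4 h or the second 48 h array (0.0519 and 0.0793). ARR15 changed by 0.83 and did not pass the test (adjusted p = 0.125). The measured genes of leaf development, 3 of 19, gave no call, where 7.18% of all probe sets were called.

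Among 4 measured genes of the stomatal lineage, of 15 listed, STOMAGEN rose and 3 were not called, where 3.37% of all probe sets rose. STOMAGEN, a peptide made by inner leaf tissue that promotes stomatal formation, gave 499.8, 428 and 492 and then 892, 764 and 869, a log2 change of 0.80 (SE 0.107, adjusted p = 4.10e-05), without overlap. SPCH, the factor that starts the lineage, gave 152, 184 and 194 and then 243, 232 and 256. Its groups did not overlap, but the log2 change of 0.43 did not pass the test (adjusted p = 0.24). MUTE, which ends the amplifying divisions, had signals of 4.8, 38.2 and 34.6 and 53.8, 56.3 and 8.6 and a log2 change of 0.34 (adjusted p = 0.795). FAMA itself, which the annotation calls FMA, gave 256, 252 and 230.3 and then 255, 246 and 229.6, a log2 change of -0.01 (SE 0.0875, adjusted p = 0.978). The FAMA groups overlapped. Of 5 measured genes listed for guard cells, AT1G22690 rose by 0.41 (adjusted p = 0.0212) and AT2G16630 fell by 0.61 (adjusted p = 3.64e-04). Over all probe sets 3.37% rose and 3.81% fell. AT1G22690 lost its call with equal array medians (0.0993), without the variance trend (0.114) and without the third 4 h or the second or the third 48 h array (0.0863 to 0.114). The guard cell proton exchanger CHX20 changed by 0.20 (adjusted p = 0.678).

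Of 6 measured genes of 14 listed for the auxin response, 2 fell, none rose and 4 were not called, where 3.81% of all probe sets fell. All 6 log2 changes were negative, with a median of -0.31. GH3.3, an enzyme that couples auxin to amino acids, gave 605, 1428 and 938 and then 273, 439 and 320.1, a log2 change of -1.41 (SE 0.219, adjusted p = 2.33e-04). IAA29, a repressor of auxin signalling that auxin induces, gave 220.2, 175 and 196 and then 76.2, 107 and 98.8, a log2 change of -0.93 (adjusted p = 0.0163). In both the groups did not overlap. The call of IAA29 was lost without the first or the third 4 h array or the first 48 h array, with adjusted p-values of 0.0775, 0.0588 and 0.0818, which left 1 call on the list. The GH3 enzyme WES1 changed by -0.19 (adjusted p = 0.401) and the auxin-induced transcription factor LBD16 by -0.43 (adjusted p = 0.465). The family of IAA and ARF genes did not share a direction. Of its 7 genes 1 fell, which was IAA29 again, none rose and 6 were not called. Its log2 changes ran from -0.93 to 1.15, 2 of them positive, with a median of -0.04. IAGLU and HAT2 stood outside the auxin list and were picked from the calls after their values were seen. IAGLU, a glucosyltransferase that acts on auxin, fell by 1.06 on the log2 scale, from 1518 ± 57.0 (SD, n = 3) to 724 ± 106 (SD, n = 3) (adjusted p = 8.23e-06). HAT2, a homeodomain-leucine zipper factor induced by auxin, fell by 0.41 (adjusted p = 0.00831).

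Of 22 genes listed for the circadian clock, GIGANTEA (GI) alone could be measured. Its signal was 562, 426 and 449 at 4 h and 293, 308 and 273 at 48 h, a log2 change of -0.67 (adjusted p = 0.00738). The groups did not overlap. Without the first 4 h array the adjusted p was 0.0537.

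Of 47 measured UGT genes, which attach sugars to hormones and secondary metabolites, 9 fell, none rose and 38 were not called, where 3.81% of all probe sets fell, with a median log2 change of -0.16. UGT84A1, which acts on hydroxycinnamic acids, gave 140.3, 135 and 129 and then 59.0, 21.6 and 40.5, a log2 change of -1.41 (adjusted p = 0.00427). UGT76B1, which glucosylates regulators of pathogen defence, gave 867, 958 and 924 and then 472, 354 and 419, a log2 change of -1.11 (adjusted p = 3.22e-05). In both, every 48 h array lay below every 4 h array. UGT73B4 and UGT73B5 are closely related neighbours whose annotated spans overlap, so their signals may not be separate. They fell by 1.19 and 0.75 (adjusted p = 5.78e-06 and 0.00836). The other falls were those of UGT87A2, UGT73B1, UGT74D1, UGT74B1 and UGT72E1, with log2 changes between -0.70 and -0.36. The number of UGT falls was 6 without the third 4 h array or without the variance trend. UGT73B5 lost its call without the third 4 h array (0.0712), UGT73B1 without the first or the third 4 h or the first 48 h array (0.0606 to 0.0973), UGT72E1 without the first 4 h or the second 48 h array (0.101 and 0.11) and UGT74B1 without any uninduced array but the first 4 h array (0.0878 to 0.224).

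The tau glutathione transferases, which join glutathione to foreign and reactive compounds, gave 2 rises and 2 falls among 11 genes, where 3.37% of all probe sets rose and 3.81% fell. GSTU25 gave 3162, 2682 and 2776 and then 1056, 1142 and 1143, a log2 change of -1.35 (SE 0.116, adjusted p = 1.89e-07). GSTU22 gave 2295, 2101 and 2299 and then 971, 912 and 1124, a log2 change of -1.14 (adjusted p = 8.73e-07). GSTU18 and GSTU27 rose by 0.54 and 0.41 (adjusted p = 0.00333 and 0.0365). GSTU27 had no call with equal array medians (adjusted p = 0.145) and lost it without any uninduced array but the first 4 h array, with adjusted p-values from 0.0606 to 0.137.

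Class III peroxidases, secreted enzymes that act on the cell wall and in defence, gave 1 rise and 2 falls among 7 measured genes, beside the same shares over all probe sets (3.37% and 3.81%). The peroxidase AT5G64120 gave 3276, 3894 and 3388 and then 1441, 1461 and 1565, a log2 change of -1.23 (adjusted p = 1.48e-05). AT5G66390 fell by 0.64 (adjusted p = 0.00707), a call lost without the first 4 h array (0.0566), the second 48 h array (0.0591) or the variance trend (0.0502). PRXR1 rose by 0.42, from 11079.6 ± 141 (SD, n = 3) to 14881 ± 411 (SD, n = 3) (adjusted p = 0.00161), and lost its call with equal array medians (0.0697). The chitinase CHI (AT2G43570) fell by 1.24, from 432 ± 20.6 (SD, n = 3) to 172 ± 20.6 (SD, n = 3) (adjusted p = 1.46e-05). NDB2, an alternative NADH dehydrogenase of the mitochondrial membrane, gave 1188, 1252 and 1233 and then 591, 460.4 and 629.8, a log2 change of -1.11 (adjusted p = 1.30e-06). JRG21, named as a jasmonate-regulated gene, fell by 1.56 (adjusted p = 0.00309).

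Expansins loosen the growing cell wall without cutting it. Of 10 alpha expansins 2 rose and 3 fell, where 3.37% of all probe sets rose and 3.81% fell. EXPA15 gave 543, 688 and 591 and then 1202, 1080.0 and 1009.5, a log2 change of 0.84 (adjusted p = 1.03e-05). EXPA4 rose by 0.82, from 1143 ± 121 (SD, n = 3) to 2031 ± 97.3 (SD, n = 3) (adjusted p = 1.66e-05). EXPA16 gave 376, 542 and 494 and then 138, 194 and 171, a log2 change of -1.38 (adjusted p = 2.87e-06). None of these 3 expansins had overlapping groups. EXPA8 and EXPA9 fell by 0.63 and 0.54 (adjusted p = 0.00927 and 0.0111). EXPA8 lost its call without the third 48 h array (0.059) or the variance trend (0.0739), and EXPA9 without the second 48 h array (0.0694). The beta expansin EXPB3 rose by 0.97, from 1181 ± 106 (SD, n = 3) to 2347 ± 361 (SD, n = 3) (adjusted p = 1.77e-05), the 1 call among 9 beta expansin and expansin-like genes.

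XTH enzymes cut and rejoin xyloglucan, and 3 of 10 fell (3.81% of all probe sets fell). The neighbours XTH18 and XTH19 fell by 1.09 and 0.48 (adjusted p = 0.0218 and 0.0405) and XTH20 by 0.79 (adjusted p = 0.0462). No XTH gene passed the test with equal array medians, with quantile normalization or without the variance trend, and the number that fell was 0 or 1 after leaving out any 1 of the 6 uninduced arrays. Among 5 pectin methylesterases, which remove methyl groups from pectin, ATPMEPCRB fell by 1.30 (adjusted p = 1.82e-05) and PME61 rose by 1.19 (adjusted p = 0.0252). Over all probe sets 3.37% rose and 3.81% fell. ATPMEPCRB gave 988, 988 and 774 and then 395, 317 and 368, and PME61 rose from lower signals of 55.7, 32.8 and 23.5 to 119.5, 103 and 101. The call of PME61 was lost without any uninduced array but the first 4 h array, with adjusted p-values from 0.0594 to 0.13.

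ATG8 proteins coat the membranes of forming autophagosomes. Of 9 measured genes 3 fell and none rose (3.81% of all probe sets fell). ATG8B gave 343, 421 and 401 and then 248, 246 and 238, a log2 change of -0.63 (adjusted p = 0.00914). ATG8H and APG8A fell by 0.62 and 0.42 (adjusted p = 0.00518 and 0.0104), and the other 6 log2 changes lay between -0.29 and 0.09. ATG8B lost its call without the second 4 h array (0.0534). APG8A lost it without the first 4 h or the second 48 h array (0.0733 and 0.0769), without the variance trend (0.0562) and with the 6 uninduced arrays fitted alone (0.0528). Other lists gave no call at all in the main fit, where 7.18% of all probe sets were called, so few calls could arise in lists this short. These were touch and wound (4 of 12 genes measured), flavonoid and anthocyanin synthesis (3 of 13), tubulins (7 genes), tetraspanins (15 genes) and glutaredoxins (10 genes), with medians between -0.06 and 0.23. The median signal was reached by 1 touch and wound gene, no flavonoid gene and 5 tetraspanins, but by all tubulins and glutaredoxins.

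**Figure D3:**
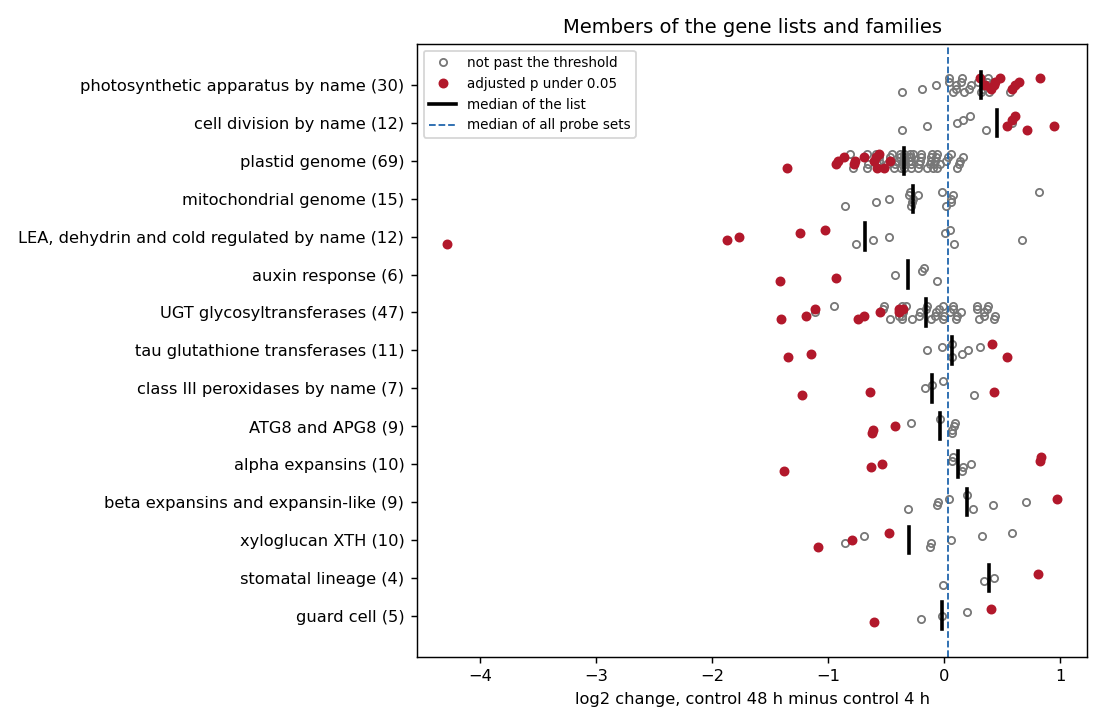
Log2 change from 4 h to 48 h in uninduced seedlings for each member of 15 lists or families (number of members in parentheses), with members past an adjusted p of 0.05 filled, the list median as a bar and the median of all probe sets as a dashed line. Filled points lie only to the right for the photosynthetic apparatus and cell division and only to the left for the plastid genome, the LEA, dehydrin and cold group, auxin response, the UGT, ATG8 and XTH families.

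The estrogen-treated FAMA seedlings gave the same step in age on 6 arrays of their own, with FAMA induced in both groups. There, 4291 probe sets (18.9%) passed the test, 2053 higher (9.03%) and 2238 lower (9.84%). Of the 767 that rose in uninduced seedlings, 152 (19.8%) also rose in FAMA seedlings, 153 (19.9%) fell and 462 were not called. Of the 866 that fell, 351 (40.5%) also fell, 107 (12.4%) rose and 408 were not called. The shared rises were 7.40% of the rises in FAMA seedlings and the shared falls 15.7% of their falls. Across all probe sets, which are not independent, Pearson's r of the steps was 0.08 and Spearman's rho -0.006.

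COR15A, LTI30 and COR47 fell in both kinds of seedling. They had log2 changes of -4.43, -1.50 and -1.47 in FAMA seedlings (adjusted p = 1.16e-09, 4.16e-10 and 4.99e-11). COR15B fell there by 2.10 (adjusted p = 1.79e-05). The steps differed for COR47 and COR15B (adjusted p of the difference = 0.0143 and 0.0194), both with the larger fall in FAMA seedlings, and the test did not pass for COR15A and LTI30 (0.866 and 0.0866). GI fell by 0.65 (adjusted p = 0.00379), against 0.67 in uninduced seedlings, and the test of the difference gave an adjusted p of 0.954. The plastid genome gave 26 falls among 69, no rise and a median of -0.40 in FAMA seedlings, and 2 of the 69 differed between the steps. Of the 30 nuclear photosynthetic genes, 18 fell and none rose in FAMA seedlings (9.84% of all probe sets fell there), with a median of -0.41, and the difference between the steps passed the test for 20 (13.6% of all probe sets). CHLM changed by -0.62 there against 0.59 in uninduced seedlings (adjusted p of the difference = 6.53e-06). ICL changed by -1.03 in FAMA seedlings and was not called (adjusted p = 0.0913), but its steps did not differ by the test (adjusted p = 0.117).

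Single genes moved against each other. EXPA16 fell by 1.38 in uninduced seedlings and rose by 2.76 in FAMA seedlings (adjusted p of the difference = 2.38e-11). AT3G02480 gave 362, 461 and 525 and then 136, 90.6 and 91.5 in uninduced seedlings, a log2 change of -1.90, but 1.68 in FAMA seedlings (adjusted p of the difference = 1.10e-07). STOMAGEN rose by 0.80 in uninduced seedlings and changed by -0.15 in FAMA seedlings (adjusted p of the difference = 1.63e-04). AT5G55450, the largest rise under the rule for naming, rose in both, by 1.98 and 2.43 (adjusted p of the difference = 0.475).

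**Figure D4:**
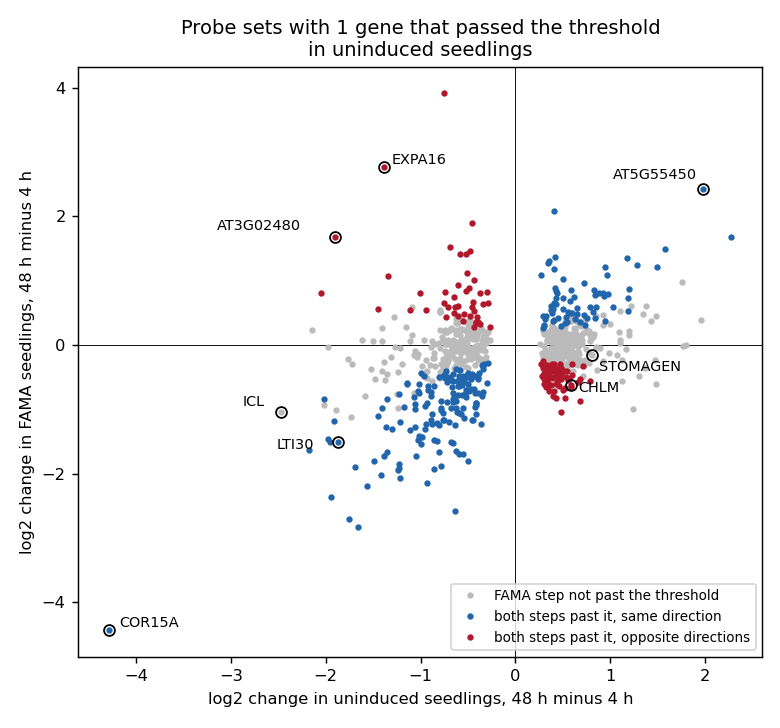
Log2 change from 4 h to 48 h in uninduced seedlings (horizontal) and in FAMA seedlings (vertical) for the 780 probe sets with 1 gene that passed the threshold in uninduced seedlings; colours mark whether the FAMA step also passed it and in which direction. COR15A lies low on both axes, while EXPA16 and AT3G02480 lie to the left and above 0.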

How the data were processed

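RNA of whole seedlings was measured on Affymetrix ATH1 arrays, 3 in each of 5 groups. The deposited values are MAS5 signals (intensity), per the submitters' processing notes. The 2% trimmed mean was 500.04 to 500.05 on every array, so the authors scaled arrays to 1 level, but the target is not given in the sources used here, nor are detection calls used. Array number limits the precision.

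From these, log2(signal + 20) was formed, the offset being the median signal (197.4) divided by 10 and rounded, which understates changes of dim probe sets. limma 3.58.1 in R 4.3.3 fitted all 15 arrays in 5 groups, with a variance trend and 10 residual degrees of freedom, checked on simulated data. P-values were adjusted by Benjamini-Hochberg over 22746 probe sets, and 0.05 was the threshold. Genes were named from GEO's platform table and RefSeq, where 13436 of 13513 matched.

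Named genes were the 12 largest rises and falls past the threshold with non-overlapping groups and a mean signal in the higher group of at least the median, up to 4 members of each list described (called ones first), all measured clock and oil genes, and FAMA. Lists held 399 genes, 58 with a named probe set. Families by name, and other genes given with a symbol, were chosen after their values were seen. Members and lists were chosen with earlier results of these data known.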

Additional observations from a re-analysis of the deposited data

Results flagged for a closer look

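For 52 of the 102 genes named by the rule or bearing a symbol and changed at least 2-fold, the step from 4 h to 48 h differed between uninduced and FAMA seedlings (limma, adjusted p of the difference under 0.05). Over all probe sets 13.6% differed, but these genes were chosen partly for their step in uninduced seedlings, so the share is a description. The values are the log2 step in uninduced minus that in FAMA seedlings, 26 positive and 26 negative. The FAMA steps rest in part on the third FAMA 4 h array, which stood apart.

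Among genes of photosynthesis and its assembly the difference was 0.66 for RCA, 0.81 for LHCB4.1, 0.89 for LHCB4.2, 0.52 for LPA2, 0.63 for NdhN and 1.21 for CHLM. It was -0.66 for the plastid gene petL. Among genes of division and the stomatal lineage it was 0.71 for AUR1, 1.16 for AUR3, 0.58 for 3xHMG-box2, 1.20 for KINESIN-12B and 0.95 for STOMAGEN. It was -0.55 for FAMA, -1.54 for AT2G16630 and -1.68 for AT1G22690.

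Among stress and auxin genes it was 0.44 for COR47, 1.49 for COR15B, 1.21 for IAA29 and 1.08 for WES1, and -1.54 for LEA18. Conjugating enzymes gave -0.90 for UGT73B4, -1.18 for UGT76B1, -0.51 for GSTU25, -0.56 for GSTU22, -0.77 for GSTU27 and 0.94 for GSTU18. Peroxidases, the chitinase and NDB2 gave -0.64 for AT5G66390, 0.50 for PRXR1, -0.82 for CHI and -1.65 for NDB2.

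Wall genes gave -1.67 for XTH18, -1.30 for XTH20, -1.93 for XTH19, -3.32 for PMEPCRF, -4.15 for EXPA16 and 1.02 for EXPA8. The autophagy genes ATG8B and ATG8H gave -1.03 and -0.67, and the zinc finger gene GIS gave 1.69. Genes with a locus name or of the largest steps gave 1.80 for AT1G56710, 1.03 for AT2G33850, 1.05 for AT3G45160, 1.04 for scpl35, 0.66 for AT1G03820 and 1.23 for AT3G17680. Those among the largest falls gave -2.38 for AT2G04050, -2.86 for AT1G16850, -1.18 for AT5G48430, -0.73 for AT5G02540, -3.58 for AT3G02480, 0.95 for AT5G62280 and -1.42 for AT3G46280.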

How the results depend on the processing

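Of the 1633 probe sets past the threshold, the number became 941 without the variance trend (409 higher, 532 lower) and 2653 with array weights (1349 higher, 1304 lower). Setting array medians equal left 476 higher, 43.3% of its calls, against 47.0% in the main fit. With the median signal divided by 2 as the offset, 108 were called and at least 2-fold, against 253. Leaving out each of the 15 arrays in turn gave 1041 to 2264 calls, 460 to 1151 higher, 581 to 1113 lower and 197 to 300 at least 2-fold. It gave 3271 to 4667 for the FAMA step and 2448 to 3467 for the difference of the steps. Deviations of same-numbered arrays correlated at 0.025, 0.021 and -0.020, so no pairing by replicate number was seen. These values do not settle whether the samples were paired. The fit with the replicate block gave 1653 calls. Of 79 named genes past the threshold, 56 stayed past it in each of the 24 alternative settings that tested them, 23 missed it in at least 1, and none changed direction. Of 23 not past it, 3 passed in at least 1 setting. The setting that kept the 13647 probe sets above the 40th percentile of mean signal did not test dimmer genes. Across 45 list medians, 67 of 360 alternative values moved by 1 replicate SD or more. The median SE of a log2 change was 0.36 below the median signal and 0.13 above it, so dim genes allowed only large changes to be seen.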

Other observations

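The 6 genes of carbon and thiamine metabolism given here were picked from the calls after their values were seen, and no count over a list stands behind them. ATSPS4F, a sucrose phosphate synthase, gave 484, 498 and 594 at 4 h and 929, 1164 and 1048 at 48 h, a log2 change of 0.97 (limma adjusted p = 9.68e-05). DPE1, which remakes glucans from maltotriose in the plastid, rose by 0.60 (adjusted p = 0.0136), and AT5G26570, the starch phosphorylating enzyme PWD, rose by 0.63 (adjusted p = 0.0309). SWEET11, a sucrose exporter of the phloem, rose by 0.45 (adjusted p = 0.0175), 1 of 15 SWEET genes to do so, where 3.37% of all probe sets rose. HPR, the hydroxypyruvate reductase of photorespiration, rose by 0.43 (adjusted p = 0.0227). THIC, the enzyme that makes the pyrimidine of thiamine, gave 2119, 1778 and 1973 and then 3340.5, 3465 and 3808, a log2 change of 0.85 (adjusted p = 4.21e-04). ATSPS4F and THIC kept their calls in every one of the 24 alternative settings. With equal array medians SWEET11 (adjusted p = 0.0829), PWD (0.0697) and HPR (0.146) had no call, and without the variance trend DPE1 (0.0664) had none either. Leaving out 1 uninduced array ended the call for DPE1 and SWEET11 with any of 3 arrays, for HPR with any of 4 and for PWD with any of 5, with adjusted p-values up to 0.135. In all 6 of these genes every 48 h array was above every 4 h array. SWEET11 fell in FAMA seedlings, by 0.54 (adjusted p = 0.00143), whereas ATSPS4F rose there by 1.09 (adjusted p = 5.05e-06).

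Of the 154 genes with a symbol that passed the test, 63 rose and 91 fell, and those at least 2-fold changed were 4 rises and 24 falls.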
